A study of Mus musculus with 10 samples.

Results

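The genes described here carry folate into cells or use it in the cytosol. They are 8 listed genes, all found among the 46983 genes of the count files and all retained among the 15610 genes tested after low counts were removed. *Folr1*, *Folr2*, *Slc19a1* and *Slc46a1* encode proteins of uptake, and *Tyms*, *Shmt1*, *Mthfd1* and *Aldh1l1* encode enzymes. The genes were listed by function, and earlier results of these data were known when the list was made. By the quasi-likelihood test no member differed between the diets after adjustment over all genes, and 0 of the 15610 genes tested did. With limma voom and quality weights, which called 6.64% of all genes, 2 members passed. *Tyms*, the thymidylate synthase gene, and *Shmt1*, the cytosolic serine hydroxymethyltransferase gene, had the lowest estimates in the high folic acid group, at -0.62 and -0.37 on the log2 scale, and *Mthfd1* and *Slc19a1* had estimates near 0.

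Folate is taken up by receptors anchored in the outer face of the membrane and by carriers that span it. In the cytosol, tetrahydrofolate carries single carbon units, which are taken mainly from serine and formate and passed to purines, to thymidylate and, through methionine, to methylation. In the mammary gland, which is a fat pad crossed by epithelial ducts, these genes are used by several cell types, among them adipocytes, macrophages and dividing epithelial cells.

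RNA came from the right thoracic mammary fat pad of virgin female C57BL/6 mice at post-natal day 130, with 5 libraries in each group. Mice of the control group (CFA) had eaten a diet with 1 mg folic acid per kg and mice of the high group (HFA) a diet with 5 mg per kg for 4 weeks, and both groups then ate the same AIN93M maintenance diet for 4 weeks, so the libraries show the gland after supplementation had ended. The fat pad was excised whole, so each library mixes its cell types, and in such bulk RNA fewer cells of a type and less RNA per cell cannot be told apart. Libraries are named CFA1 to CFA5 and HFA1 to HFA5 in order of deposit, and a number names a library without pairing it.

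Reads counted on genes ranged from 7711010 to 14829291 in CFA and from 7672199 to 14336914 in HFA. All 10 luminal epithelial markers and all 8 adipocyte markers were detected in every library, as the tissue label requires. The summed B cell markers reached 395 CPM in CFA2, 1056 CPM in CFA5 and 3050 CPM in HFA5, against 4.05 to 6.73 CPM in the other 7 libraries, and T cell markers were high in the same 3. The summed muscle markers were 7308 to 43589 CPM in CFA, 44841 to 58190 CPM in HFA1 to HFA4 and 766 CPM in HFA5. HFA1 to HFA4 thus lay above every CFA library. Because of the B and T cell markers, the fold changes of the 8 genes are also given without CFA2, CFA5 and HFA5. This alternative was chosen after the values were seen, and the muscle markers still differ by diet in it. It cannot tell muscle content and diet apart. It left *Slc19a1* at -0.065 and *Mthfd1* at 0.015, and the others follow beside their values.

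*Folr1*, folate receptor alpha, a receptor of epithelial cells, was the least abundant member, with 5 to 25 reads per library. CPM values (reads scaled to library size, with TMM factors between libraries) were 1.58, 1.21, 1.37, 1.16 and 0.896 in CFA1 to CFA5 and 1.77, 1.64, 0.710, 2.29 and 0.318 in HFA1 to HFA5. HFA libraries lay on both sides of the CFA range, 3 above its highest value and 2 below its lowest. The log2 fold change of HFA against CFA was 0.11 (SE 0.454, 95% interval -0.90 to 1.11, FDR adjusted p = 0.960), and it turned to -0.18 without HFA4 and to -0.0045 without HFA1. It was 0.25 without CFA2, CFA5 and HFA5. The interval spans differences in both directions larger than the estimate. The 10 luminal epithelial markers summed to 663 to 2602 CPM in CFA and 425 to 2144 CPM in HFA, with the lowest sums in CFA5 and HFA5, the libraries where *Folr1* was also lowest in its group. Of these 10, 9 had lower estimates in HFA, with a median of -0.51, whereas 9372 of the 15610 genes tested had higher ones. At an unadjusted p below 0.05 there were 2 lower, beside 3.49% of all genes, and 0 after adjustment. *Prlr*, the prolactin receptor gene and the most abundant of these markers, ranged from 95.4 to 475 CPM in CFA and from 76.6 to 595 CPM in HFA.

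*Folr2*, folate receptor beta, is known as a receptor of tissue macrophages. Its CPM values were 21.4, 17.1, 31.9, 35.98 and 18.8 in CFA1 to CFA5 and 37.3, 72.0, 34.2, 8.96 and 32.0 in HFA1 to HFA5. HFA2 held the highest and HFA4 the lowest value of all 10 libraries, an 8.04-fold span, and the groups overlapped. The mean was 25.0 CPM ± 8.39 (SD, n = 5) in CFA and 36.9 CPM ± 22.6 (SD, n = 5) in HFA, and the log2 fold change was 0.56 (SE 0.441, 95% interval -0.42 to 1.54, FDR adjusted p = 0.784). Without HFA2 it was 0.16, without CFA2, CFA5 and HFA5 it was 0.36, and without HFA4 it was 0.81 (by edgeR, unadjusted p of 0.029, FDR adjusted p = 0.843). The macrophage markers moved with it. All 10 of 10 had higher estimates in HFA, as did 9372 of the 15610 genes tested. At an unadjusted p below 0.05 there was 1 of the 10, beside 3.87% of all genes higher in HFA, and 0 after adjustment. Without CFA2, CFA5 and HFA5, 8 of the 10 had higher estimates. The summed level of the 10 markers was 810 to 987 CPM in CFA and 258 to 1904 CPM in HFA. HFA4 was lowest, and none of the markers was at 0 in any library. *Lyz2*, the lysozyme gene, their most abundant member, ranged from 279 to 465.6 CPM in CFA and from 96.8 to 1113 CPM in HFA. The part of macrophage content in the *Folr2* values was not tested beyond the ratio given below.

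*Slc19a1*, the reduced folate carrier, the main route for the circulating folate of most tissues, varied little. Its CPM values lay between 18.2 and 25.4 in CFA and between 17.3 and 24.8 in HFA, a 1.47-fold span over all 10 libraries. HFA against CFA gave a log2 fold change of -0.03 (SE 0.154), with a 95% interval from -0.37 to 0.31, and its sign changed when CFA4, HFA2 or HFA3 was left out.

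*Slc46a1*, the proton-coupled folate transporter, which works best at acid pH, had CPM values of 13.3, 11.3, 12.5, 14.4 and 8.66 in CFA1 to CFA5 and of 11.8, 7.59, 12.5, 12.7 and 5.28 in HFA1 to HFA5. The HFA libraries split, with HFA2 and HFA5 below every CFA library and the other 3 inside the CFA range. This gave a log2 fold change of -0.27 (SE 0.260, 95% interval -0.85 to 0.30, FDR adjusted p = 0.822). It was also -0.27 without CFA2, CFA5 and HFA5 and -0.16 without HFA5. With a covariate of epithelial markers it was -0.0014, and with one of B and T cell markers -0.42 (unadjusted p of 0.032, FDR adjusted p = 0.280).

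**Figure D1:**
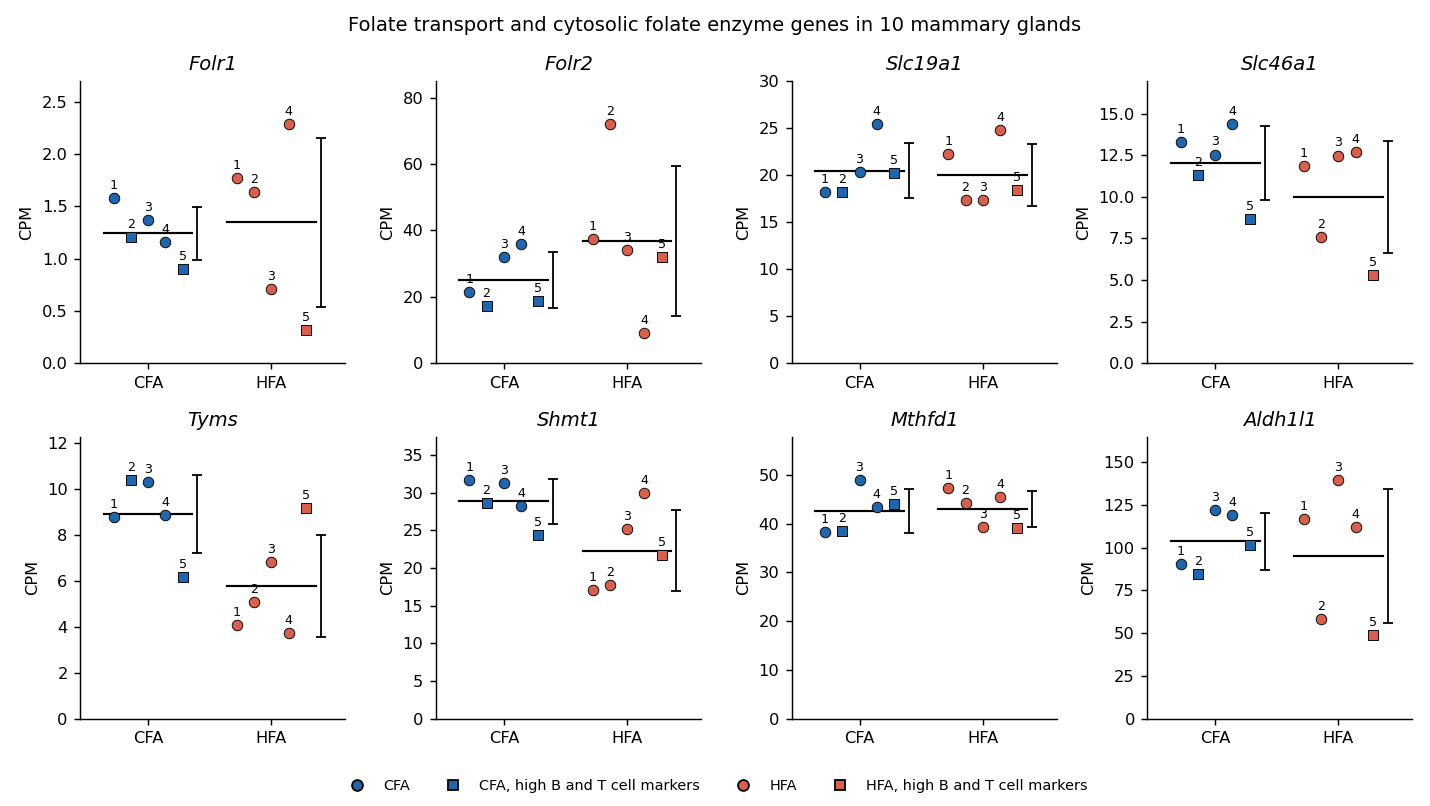
CPM of each of the 8 genes (vertical axes from 0, a scale for each gene) in the 5 CFA and 5 HFA libraries, with the library number beside each point, the group mean as a line and the SD as a bar. Squares mark CFA2, CFA5 and HFA5, and in every panel the ranges of the diets overlap.

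*Shmt1* encodes the enzyme that moves a carbon from serine to tetrahydrofolate in the cytosol. Its CPM values were 31.7, 28.6, 31.3, 28.2 and 24.3 in CFA1 to CFA5 and 17.1, 17.7, 25.1, 29.9 and 21.7 in HFA1 to HFA5. HFA1, HFA2 and HFA5 lay below every CFA library, HFA3 just above the lowest and HFA4 among the highest. The mean was 28.8 CPM ± 2.97 (SD, n = 5) in CFA and 22.3 CPM ± 5.36 (SD, n = 5) in HFA. The log2 fold change was -0.37 (SE 0.171, 95% interval -0.75 to 0.01), with an unadjusted p of 0.054 and an FDR adjusted p of 0.670 by edgeR. It kept its sign in each of the 26 alternatives, from -0.58 to -0.20. Without CFA2, CFA5 and HFA5 it was -0.44 with an unadjusted p of 0.053. Over all alternatives the unadjusted p ran from 0.0021 with limma voom and quality weights to 0.477 among the libraries whose titles have 3 as their second digit. It was 0.124 without HFA1, 0.122 without HFA2, 0.100 by the likelihood ratio test and 0.042 by DESeq2, and it was below 0.05 when CFA2, CFA5, HFA4 or HFA5 was left out.

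*Tyms* encodes the enzyme that makes thymidylate for DNA and returns dihydrofolate. Its CPM values were 8.79, 10.4, 10.3, 8.89 and 6.19 in CFA1 to CFA5 and 4.10, 5.09, 6.81, 3.75 and 9.17 in HFA1 to HFA5. HFA1, HFA2 and HFA4 lay below every CFA library, and HFA5 lay inside the upper part of the CFA range. The mean was 8.93 CPM ± 1.71 (SD, n = 5) in CFA and 5.78 CPM ± 2.23 (SD, n = 5) in HFA. The log2 fold change was -0.62 (SE 0.269, 95% interval -1.22 to -0.03), with an unadjusted p of 0.043 and an FDR adjusted p of 0.670 by edgeR. Without HFA5 it was -0.90 (FDR adjusted p = 0.0822), and without CFA2, CFA5 and HFA5 it was -0.93 (FDR adjusted p = 0.0649). The unadjusted p lay between 0.0638 and 0.0945 when CFA2, CFA3, CFA4, HFA1, HFA2 or HFA4 was left out. It was 0.0571 with the second title digit in the model, 0.178 with a block of the last title digits and 0.0505 by the likelihood ratio test. The estimate was negative in all 26 alternatives, from -0.93 to -0.48, and the adjusted p ran from 0.0359 to 0.999.

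The genes of S phase moved with *Tyms*. Of all 15610 genes tested, 9372 had higher estimates in HFA and 3.49% were lower at an unadjusted p below 0.05. Of the 25 S phase genes tested, 23 had lower estimates, 1 of them at that threshold and 0 after adjustment. Their median was -0.39 on the log2 scale, and it was -0.95 without CFA2, CFA5 and HFA5, where 23 were also lower. The 26 listed summed to 336 to 456 CPM in CFA, to 208 to 251.7 CPM in HFA1 to HFA4 and to 594 CPM in HFA5. *Mcm6*, a subunit of the replicative helicase and the most abundant of them, ranged from 36.7 to 60.8 CPM in CFA and from 20.4 to 65.3 CPM in HFA. All 20 genes of G2 and mitosis also had lower estimates, 6 at an unadjusted p below 0.05, beside 3.49% of all genes, and 0 after adjustment. Their median was -1.16, or -2.17 without CFA2, CFA5 and HFA5. *Mki67*, the proliferation marker, ranged from 28.1 to 112 CPM in CFA and from 4.21 to 72.8 CPM in HFA.

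*Mthfd1* encodes the cytosolic enzyme that converts the formyl, methenyl and methylene forms of tetrahydrofolate into each other. It was the steadiest member, with CPM values from 38.2 to 49.0 in CFA and from 39.0 to 47.4 in HFA and a coefficient of variation of 9.12% over the 10 libraries. Its log2 fold change was 0.01 (SE 0.110), with a 95% interval of -0.23 to 0.26, the narrowest of the 8, and its sign changed under upper-quartile scaling and when CFA1, CFA2, HFA1 or HFA4 was left out.

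*Aldh1l1*, 10-formyltetrahydrofolate dehydrogenase, returns formyl groups to tetrahydrofolate and carbon dioxide. Its CPM values were 90.5, 84.6, 122, 119 and 102 in CFA1 to CFA5 and 117, 58.5, 140, 112 and 48.9 in HFA1 to HFA5. The HFA libraries split as for *Slc46a1*, with HFA2 and HFA5 below every CFA library and HFA3 above all of them. The log2 fold change was -0.13 (SE 0.280, 95% interval -0.74 to 0.49, FDR adjusted p = 0.929), and it was -0.01 without HFA5, 0.01 without HFA2 and -0.06 without CFA2, CFA5 and HFA5.

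**Figure D2:**
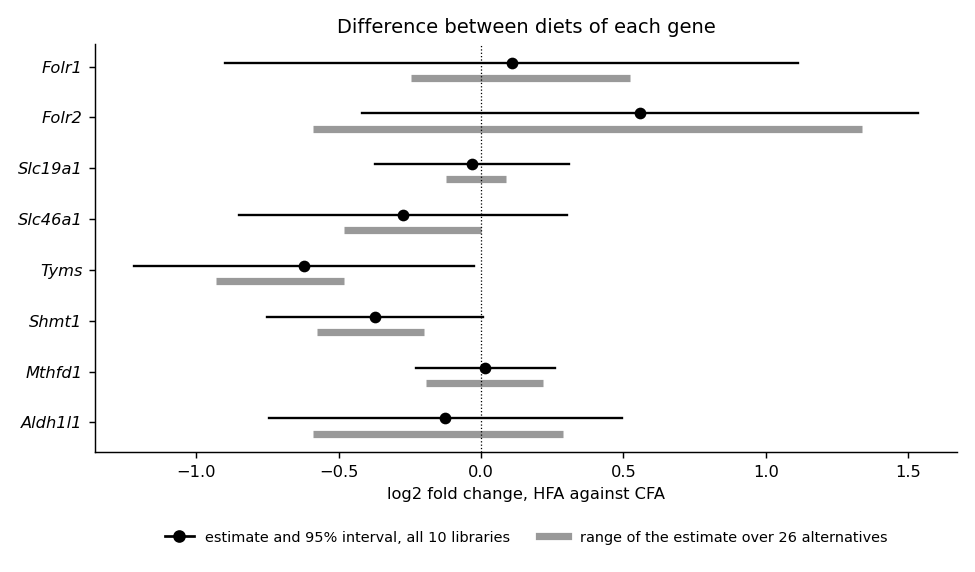
Log2 fold change of HFA against CFA (horizontal axis) for each gene, with the estimate and its 95% interval from all 10 libraries in black and the range of the estimate over the 26 alternatives in grey. The interval of *Tyms*, from -1.22 to -0.03, is the only one that does not include 0, before any adjustment over genes.

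Of the 8 genes, 0 passed an FDR adjusted p of 0.05 by the quasi-likelihood test, as did 0% of the 15610 genes tested. At an unadjusted p below 0.05 there was 1 member, *Tyms*, in the direction that 3.49% of all genes took at that threshold, beside 3.87% higher in HFA and 7.36% in either direction. With limma voom and sample quality weights, which called 6.64% of all genes, *Tyms* (-0.92, FDR adjusted p = 0.0359) and *Shmt1* (-0.58, FDR adjusted p = 0.0436) passed. DESeq2 and the likelihood ratio test called neither. The median log2 fold change was -0.08 over the 8 genes, 3 of them higher in HFA, beside 0.06 over all genes tested, of which 9372 were higher. The CPM ranges of the diets did not overlap for 0 of the 8 genes and for 0.993% of all genes.

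The second digit of the sample titles, whose meaning the labels do not give, is 2 in CFA1, CFA2 and HFA1 to HFA3 and 3 in the other 5 libraries. The estimate for *Folr2* was 1.34 within the libraries of digit 2 (FDR adjusted p = 0.0583) and -0.59 within those of digit 3. The interaction of diet and digit was -1.80 for *Folr2*, with an unadjusted p of 0.049 and an FDR adjusted p of 0.568, and it did not pass adjustment for any of the 8. *Tyms* was at -0.82 and -0.48 and *Shmt1* at -0.58 and -0.20 within digits 2 and 3. *Slc46a1* was at -0.19 and -0.48, *Aldh1l1* at 0.29 and -0.59, *Slc19a1* at 0.09 and -0.11, *Mthfd1* at 0.22 and -0.20 and *Folr1* at 0.02 and 0.09.

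Levels between genes were compared as CPM per kilobase of annotated exon. On this scale *Aldh1l1* led with a mean of 22.01 ± 6.40 (SD, n = 10), followed by *Folr2* at 20.0 ± 11.2, *Mthfd1* at 9.64 ± 0.880, *Shmt1* at 6.58 ± 1.38, *Slc19a1* at 4.36 ± 0.643, *Slc46a1* at 3.58 ± 0.937, *Tyms* at 1.21 ± 0.411 and *Folr1* at 0.563 ± 0.247. Only *Mthfd1* above *Shmt1* and *Slc46a1* above *Tyms* were neighbours whose ranges did not overlap, each in the same order in all 10 libraries. *Aldh1l1* exceeded *Folr2* in 8 libraries, and HFA2 and HFA5, the libraries with the lowest *Aldh1l1*, had the reverse order. *Tyms* exceeded *Folr1* in 8 libraries, and in HFA1 and HFA4 it was the lowest of all.

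**Figure D3:**
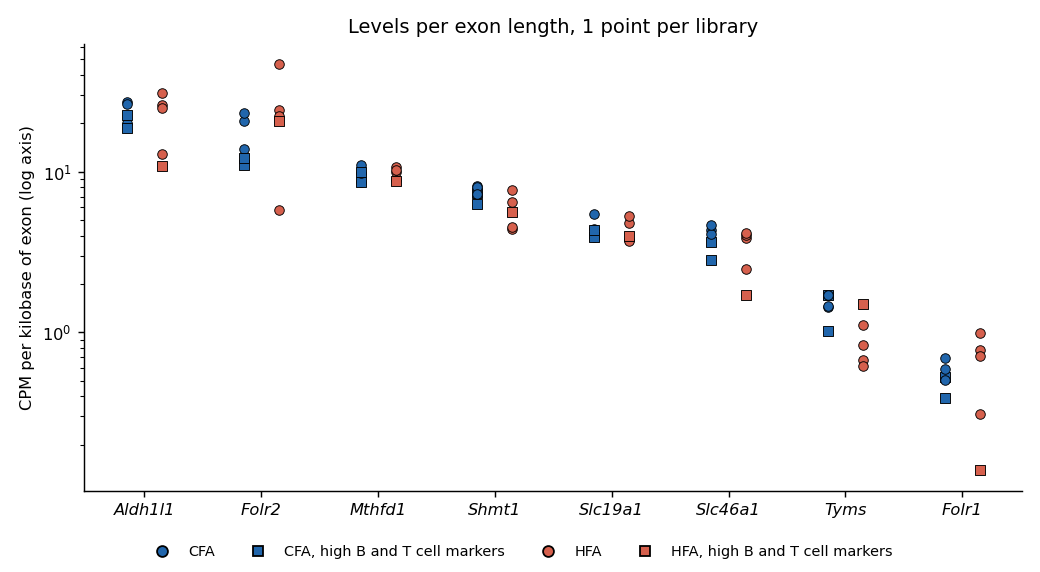
CPM per kilobase of exon (vertical log axis) of the 8 genes in order of their mean, with 1 point per library, CFA on the left and HFA on the right of each gene. The means run from 22.01 for *Aldh1l1* to 0.563 for *Folr1*, and *Folr2* has the widest spread among the abundant genes. Per kilobase of exon that no other gene shares, *Folr2* was higher than *Aldh1l1*, with means of 54.2 and 25.4.

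The position of *Folr2* in this order depends on the annotation. Of its 1546 exon bases 63.1% lie under *Gm10602* on the opposite strand, and the library kit does not keep strand. The sources used here do not state the strand setting of the counting. Counting by strand would leave a large part of such reads on no gene, but reads on no gene were 3.43% (HFA4) to 5.47% (HFA5) of the total. The counts are therefore those of counting without strand, where a read that falls on both genes is left out of both. Per kilobase of the 571 bases that no other gene shares, *Folr2* was at 54.2 ± 30.2 (SD, n = 10) and was the highest member in 9 of 10 libraries, with *Aldh1l1* at 25.4 ± 7.39. *Gm10602* itself had 1.15 to 4.21 CPM. The shared exon fraction was 13.4% for *Aldh1l1*, 4.74% for *Shmt1* and 0.83% for *Mthfd1*, and 0% for the other 4 members. Of the possible 75-base reads of the *Tyms* transcript, 5.5% also occur in other genes, among them the pseudogene *Tyms-ps*.

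The members did not vary together as a group over the 10 libraries. *Slc46a1* and *Aldh1l1* were the pair most alike, with a Pearson r of 0.86 for their log2 CPM, and *Folr2* and *Shmt1* the least, with r of -0.63. Both values describe 10 libraries that share differences in cell content. Among all genes tested, those most like *Aldh1l1* were *Pcx* (r = 0.96, Spearman rho = 0.93), *Aco1* and *Car5b*, and those most like *Slc46a1* were *Dok4* (r = 0.99, rho = 0.95), *Glt1d1* and *Shroom1*. *Tyms* was most like *Cdca2* (r = 0.98, rho = 0.95), *Kif14* and *Knl1*, 3 genes of mitosis. *Folr2* was most like *Clec10a* (r = 0.98, rho = 0.98), *Mrc1*, which is the mannose receptor of macrophages, and *Il1r1*. *Folr1* was most like *Grtp1* (r = 0.97, rho = 0.94), *Klhl12* and *Sema6a*. The best matches were weaker for the steadier genes, with *Serf1* (r = 0.88, rho = 0.92), *Ccdc18* and *Itpa* for *Shmt1*, *Hddc3* (r = 0.91, rho = 0.87), *Rnf24* and *Ppp2r1b* for *Mthfd1*, and *mt-Co3* (r = 0.86, rho = 0.78), *Syt3* and *Pik3cb* for *Slc19a1*.

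To read a member within the cells or process it is known for, its log2 CPM was taken relative to a matched list or gene in the same library, and the 6 ratios were compared by two-sided exact permutation tests over the 10 libraries. None passed after adjustment over the 6. *Folr2* relative to the macrophage markers was -1.43, -1.67, -1.10, -0.68 and -1.38 in CFA1 to CFA5 and -0.67, -0.97, -1.34, -0.93 and -1.40 in HFA1 to HFA5. The low value of HFA4 and the high value of HFA2 were no longer apart from the rest, and the SD over the 10 libraries was 0.34 for the ratio against 0.81 for *Folr2* alone. The difference between diets was 0.19 (exact permutation p = 0.365, adjusted p = 0.548), from 0.087 without CFA2 to 0.33 without CFA4, and 0.094 without CFA2, CFA5 and HFA5. *Tyms* relative to S phase genes was -0.34, -0.20, -0.49, -0.34 and -0.70 in CFA1 to CFA5 and -0.59, -0.26, -0.14, -0.63 and -0.87 in HFA1 to HFA5. HFA3 lay above and HFA5 below every CFA library, with the other 3 HFA libraries inside the CFA range, and the SD was 0.24 for the ratio against 0.53 for *Tyms* alone. The difference was -0.09 (exact permutation p = 0.595, adjusted p = 0.683), 0.0058 without HFA5 and -0.017 without CFA2, CFA5 and HFA5. With the median in place of the mean over the S phase genes it was -0.35 (exact permutation p = 0.0397, adjusted p = 0.119).

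*Shmt1* relative to *Shmt2*, which encodes the mitochondrial enzyme of the same reaction, was 0.13, -0.10, 0.03, 0.00 and -0.55 in CFA1 to CFA5 and -0.72, -0.64, -0.45, 0.06 and -1.17 in HFA1 to HFA5. HFA1, HFA2 and HFA5 lay below all CFA libraries, and HFA3 and HFA4 lay inside their range. The difference was -0.49 (exact permutation p = 0.087, adjusted p = 0.381), with or without CFA2, CFA5 and HFA5, and it ran from -0.34 without HFA5 to -0.65 without HFA4 (exact permutation p = 0.0238, adjusted p = 0.143). Here the ratio varied more than *Shmt1* alone, with SDs of 0.43 and 0.32. *Shmt2* had 28.2 to 35.7 CPM in CFA and 27.7 to 49.1 CPM in HFA, where HFA5 was highest. Its log2 fold change was 0.12 (unadjusted p of 0.491). *Folr1* relative to luminal markers differed by 0.44 (exact permutation p = 0.27, adjusted p = 0.54). This was 0.27 without CFA2, 0.66 without CFA5, 0.73 without HFA3 (exact permutation p = 0.0556), 0.48 without CFA2, CFA5 and HFA5 and 0.74 with the median over the markers. The SD over the 10 libraries was 0.64 for this ratio against 0.67 for *Folr1* alone, so it varied nearly as much as the gene. *Aldh1l1* relative to adipocyte markers differed by -0.41 (exact permutation p = 0.127, adjusted p = 0.381), by -0.25 without HFA2, by -0.36 without CFA2, CFA5 and HFA5, and by -0.54 with the median over the markers (exact permutation p = 0.0317, adjusted p = 0.119). Its SD was 0.42 as a ratio against 0.49 for *Aldh1l1* alone, and the gene and the marker mean had a Pearson r of 0.53. *Mthfd1* relative to *Mthfd1l* differed by 0.31 (exact permutation p = 0.683, adjusted p = 0.683). Leaving out single libraries moved it to -0.12 without HFA4, to 0.96 without HFA5 (exact permutation p = 0.0476, adjusted p = 0.286) and to between 0.15 and 0.49 without CFA2, CFA3, CFA5 or HFA1, and it was 0.55 without CFA2, CFA5 and HFA5. *Mthfd1l*, the mitochondrial formate-producing counterpart, was at 4.94 to 11.6 CPM in CFA, at 1.74 to 4.74 CPM in HFA1 to HFA4 and at 32.3 CPM in HFA5.

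**Figure D4:**
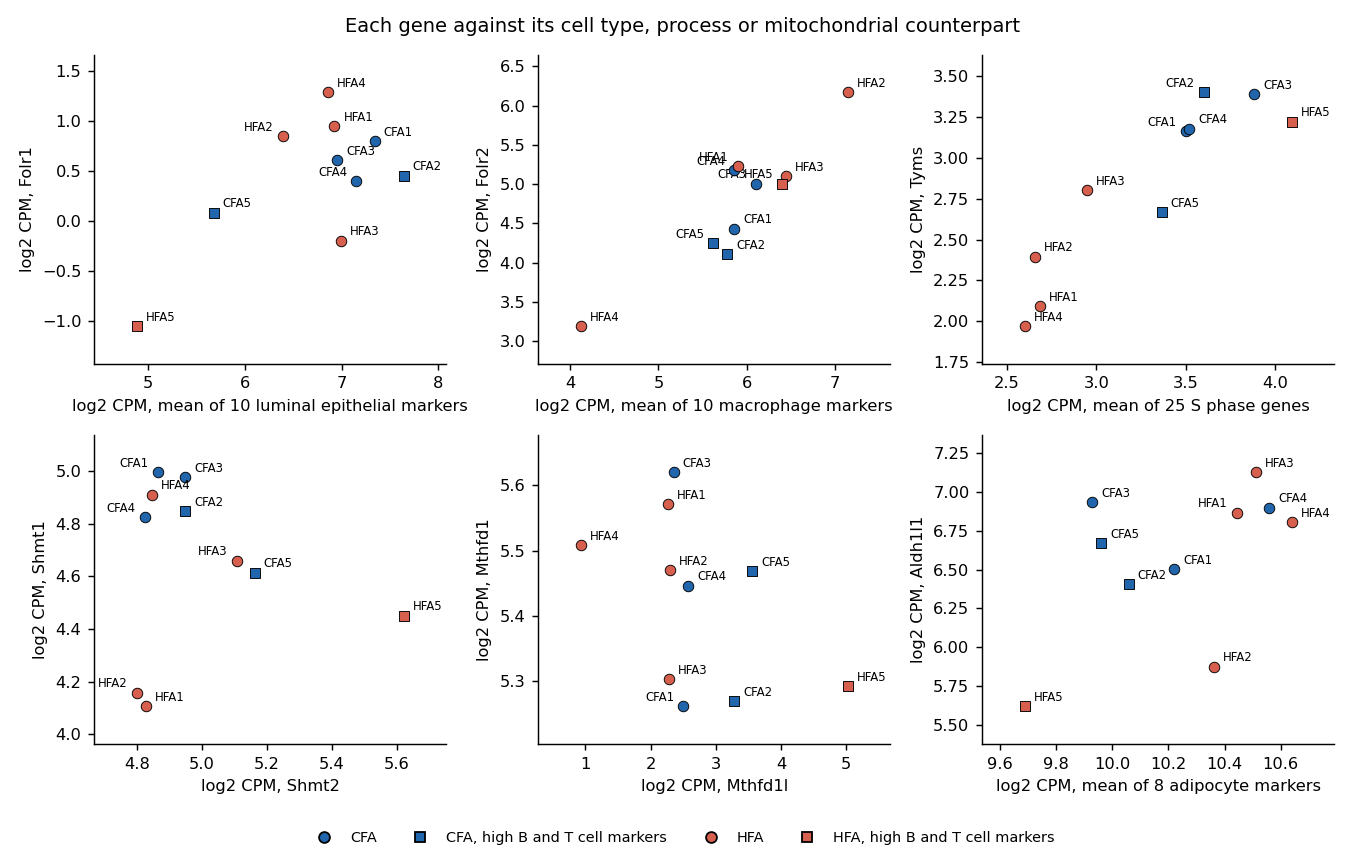
Log2 CPM of 6 members (vertical axes) against the mean log2 CPM of a marker list or the level of the mitochondrial counterpart (horizontal axes), 1 point per library with CFA in blue, HFA in red and squares for CFA2, CFA5 and HFA5. *Folr2* and *Tyms* lie along their lists, with HFA4 and HFA2 at the ends of the macrophage axis, whereas *Shmt1* and *Mthfd1* do not follow *Shmt2* or *Mthfd1l*.

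The rest of the pathway was read from 5 lists of 45 genes, of which 39 were tested. Of these 0 passed the FDR adjusted threshold in the quasi-likelihood test, 4 were higher and 2 lower at an unadjusted p below 0.05, beside 3.87% and 3.49% of all genes, and the median log2 fold change was -0.05. All 7 thymidylate genes had lower estimates in HFA, from -1.40 to -0.07 with a median of -0.28, as they did under RLE and upper-quartile scaling. Of all 15610 genes tested, 9372 had higher estimates. Without CFA2, CFA5 and HFA5 all 7 were lower too and their median was -0.72, beside 0.008 over all genes of that fit. The S phase genes described above were also mostly lower. *Dctd*, the deaminase that makes the deoxyuridylate on which *Tyms* acts, had 9.13, 7.57, 8.39, 4.84 and 4.85 CPM in CFA1 to CFA5 and 1.88, 2.33, 3.83, 1.74 and 3.37 CPM in HFA1 to HFA5. All 5 HFA libraries lay below all 5 CFA libraries, and the log2 fold change was -1.40 with an FDR adjusted p of 0.577 by the quasi-likelihood test and 0.0065 by DESeq2. Among the others *Rrm1*, a ribonucleotide reductase subunit and the most abundant gene of the list, was at -0.19 and *Rrm2* at -0.59.

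Of 11 tested genes of uptake, export and storage, 7 were higher in HFA and 4 lower. *Abcc1*, an exporter that can carry folates, was the only one at an unadjusted p below 0.05, with 52.0 to 65.5 CPM in CFA and 66.3 to 79.7 CPM in HFA. Its groups did not overlap, as for *Dctd* and for no other of the 39 tested genes of the 5 lists, beside 0.993% of all genes, and its log2 fold change was 0.29. Its unadjusted p by edgeR was 0.019, and it was 0.107 without CFA2, 0.0867 without CFA3 and 0.0840 by the likelihood ratio test. *Abcc5*, the most abundant by CPM, was at 0.07. Of 5 cofactor genes of the cytosol, *Mtr*, methionine synthase, was at 0.40 with an unadjusted p of 0.029. With single libraries left out this p by edgeR reached 0.112 (without CFA2). Of 6 purine genes 3 were higher and 3 lower, with *Adsl* at 0.49 and *Ppat* at 0.32, both at unadjusted p below 0.05, and *Paics*, the most abundant, at -0.05. Without CFA2 the unadjusted p by edgeR was 0.140 for *Adsl* and 0.164 for *Ppat*, and *Adsl* was at 0.067 within title digit 3. Of 10 mitochondrial genes tested, 6 were lower, with *Aldh1l2*, the mitochondrial relative of *Aldh1l1*, at -0.99 (unadjusted p of 0.026). It was at -0.47 with a covariate of epithelial markers (unadjusted p of 0.087), and its unadjusted p was 0.0552 without CFA2 and 0.0594 without CFA3. *Gcsh*, the most abundant, was at 0.16. *Slc19a3*, *Lrp2*, *Amn*, *Ftcd* and *Dmgdh* had at most 10 reads in a library and did not pass the filter. *Izumo1r*, folate receptor delta, which is a gene of regulatory T cells, did not pass it either, with 16 reads in CFA2, 105 in CFA5 and 276 in HFA5, the libraries with high T cell markers, against 0 to 4 in the other 7. The part of these cells in its level was not tested.

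**Figure D5:**
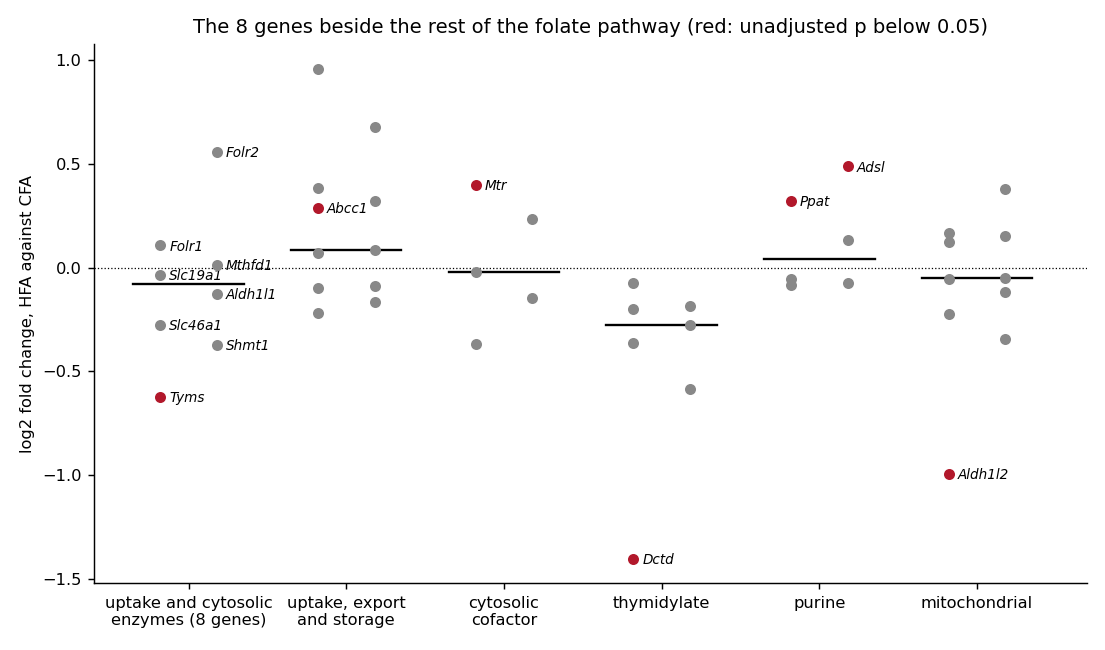
Log2 fold change of HFA against CFA (vertical axis) for the 8 genes and the 39 tested genes of 5 other folate lists, 1 point per gene with a line at each list's median and an unadjusted p below 0.05 in red. All 7 thymidylate genes lie below 0, with *Dctd* at -1.40, while the other lists spread to both sides.

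The promoters of 4 members are shown because *Tyms* and *Shmt1* had the lowest estimates and *Slc46a1* and *Aldh1l1* were the pair most alike. Each line gives the 250 bases before the RefSeq start of the gene's strand in GRCm38.p6, with matches to GGGCGG (the GC box) or CCAAT on either strand in capitals. The windows lie at chr5:30073626-30073875 on the minus strand for *Tyms*, chr11:60811266-60811515 on the minus strand for *Shmt1*, chr11:78465451-78465700 on the plus strand for *Slc46a1* and chr6:90550543-90550792 on the plus strand for *Aldh1l1*. Those of *Aldh1l1* and *Shmt1* lie inside the annotated gene spans, chr6:90486427-90600203 and chr11:60788104-60811718. The RefSeq starts used for these genes are therefore not their outermost annotated starts.
Tyms: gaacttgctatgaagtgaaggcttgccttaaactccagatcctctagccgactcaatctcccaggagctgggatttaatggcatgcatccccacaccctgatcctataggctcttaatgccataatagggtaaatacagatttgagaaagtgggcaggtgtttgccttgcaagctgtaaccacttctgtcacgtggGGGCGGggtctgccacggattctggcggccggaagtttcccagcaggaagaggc
Shmt1: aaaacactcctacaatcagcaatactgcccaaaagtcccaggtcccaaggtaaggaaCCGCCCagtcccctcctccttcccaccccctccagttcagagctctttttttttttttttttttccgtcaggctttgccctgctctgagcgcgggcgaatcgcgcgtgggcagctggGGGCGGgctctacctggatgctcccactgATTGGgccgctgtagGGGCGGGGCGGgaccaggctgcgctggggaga
Slc46a1: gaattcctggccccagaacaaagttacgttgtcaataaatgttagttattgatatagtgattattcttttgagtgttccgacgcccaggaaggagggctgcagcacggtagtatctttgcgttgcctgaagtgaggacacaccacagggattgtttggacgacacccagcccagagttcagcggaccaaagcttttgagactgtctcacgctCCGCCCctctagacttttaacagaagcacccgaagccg
Aldh1l1: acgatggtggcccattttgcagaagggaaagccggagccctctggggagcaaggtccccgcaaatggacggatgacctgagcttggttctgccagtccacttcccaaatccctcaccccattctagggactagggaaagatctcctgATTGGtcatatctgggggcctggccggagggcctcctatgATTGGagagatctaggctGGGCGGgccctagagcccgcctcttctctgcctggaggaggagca

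*Shmt1* held 4 GC boxes, of which 2 overlap, and 1 CCAAT box. *Aldh1l1* held 1 GC box and 2 CCAAT boxes, and *Tyms* and *Slc46a1* held 1 GC box each and no CCAAT box. GGGCGG occurs in 32.7% and CCAAT in 33.9% of the 32851 RefSeq windows of this length, counting both strands. No window of the 7 members with an entry held the E2F motifs TTTCCCGC or TTTGGCGC or the TATA motif TATAAA, which occur in 0.895%, 0.417% and 12.4% of all windows. These matches describe the letters of the windows and no binding was measured. The genes lie at chr7:101858331-101870788 (*Folr1*), chr7:101839988-101857194 (*Folr2*), chr10:77032241-77061002 (*Slc19a1*), chr11:78465697-78472059 (*Slc46a1*), chr5:30058202-30073617 (*Tyms*), chr11:60788104-60811718 (*Shmt1*), chr12:76255298-76319803 (*Mthfd1*) and chr6:90486427-90600203 (*Aldh1l1*) in GRCm38, so *Folr1* and *Folr2* lie close together on chromosome 7.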

How the data were processed

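RNA sequencing counts of 10 mouse mammary glands were used. The authors aligned paired reads to GRCm38 (mm10) with TopHat2 2.0.14 and Bowtie2 2.2.5 and counted them on Ensembl genes with HTSeq 0.6.1. The deposited counts are whole numbers per gene without normalization, and the strand setting of the counting is not given in the sources used here. Groups came from the diet in the labels. The authors' model held cage, which is not among the labels, so the fit here has diet alone. The 8 genes, the lists and the tests were chosen with earlier results of these data known.

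Symbols and exon lengths came from GENCODE M21, which matched 46488 of 46983 genes. Counts were filtered with filterByExpr, scaled by TMM and tested in R 4.3.3 with edgeR 4.0.16 (quasi-likelihood test, Benjamini-Hochberg adjustment over 15610 genes, threshold 0.05). The SE is the log2 fold change over the root of the F statistic, and the 95% interval uses the test's degrees of freedom. The common biological coefficient of variation was 0.409. Log2 CPM used a prior count of 2. Counts carry no molecular identifiers, and SDs are between mice. The fits were also run on simulated counts with the same dispersion for every gene. That setting lacks the differences in cell content between these libraries, so it does not measure how the fits perform on them.

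Named genes are the 8 members, other pathway genes with an unadjusted p below 0.05, the most abundant gene of each pathway list and of the marker lists discussed, *Shmt2*, *Mthfd1l* and the 3 genes most correlated with each member. *Rrm2* was named after its values were seen. Some items that this rule selects are not reported here. Alternatives were RLE and upper-quartile scaling, 2 other filters, the likelihood ratio test, DESeq2 1.42.0, limma 3.58.1 voom without and with quality weights, title digits as a term or block, marker covariates, each library left out, and libraries of 1 digit. The muscle covariate and the fit without CFA2, CFA5 and HFA5 were added after the data were seen. Promoters are from RefSeq, where *Folr1* had no entry.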

Additional observations from a re-analysis of the deposited data

Results flagged for a closer look

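Among 52 groups of 5 values examined, 3 held a library whose gap to its nearest neighbour exceeded 0.71 of the group's range. Chance gives such a gap in about 1 group in 20. *Adsl*, a purine synthesis gene, was at 42.5 CPM in HFA5 against 72.7 to 83.3 CPM in the other HFA libraries. *Mthfd1l* was at 32.3 CPM in HFA5 against 1.74 to 4.74 CPM in the other HFA libraries. The log2 ratio of *Folr1* to the luminal epithelial markers was -7.18 in HFA3 against -5.97 to -5.54 in the other HFA libraries, and rests on 5 reads of *Folr1* in HFA3.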

How the results depend on the processing

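The 8 genes were fitted under 26 alternatives each, and 179 of these 208 estimates kept the direction and the side of the threshold. *Slc46a1* was negative and uncalled in every alternative, from -0.48 within title digit 3 to -0.0014 with the epithelial covariate. *Tyms* (-0.92) and *Shmt1* (-0.58) passed the adjusted threshold with limma voom and quality weights, which made 2 members called in place of 0, and in no other alternative. The cause of the changes below was not tested. All values are log2 fold changes or differences of HFA against CFA.

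Under limma voom *Folr1* was at -0.20 and *Mthfd1l* at -0.13. With quality weights *Slc19a1* was at 0.0096, *Aldh1l1* at 0.051, *Shmt2* at -0.0081 and *Mthfd1l* at -0.47, and 3 members were lower in HFA in place of 5. *Mthfd1* was at -0.046 under upper-quartile scaling and at -0.051 without a filter. Upper-quartile scaling moved the median of all genes from 0.06 to -0.002. With the replicate block, by the last digits of the titles, *Folr1* was at -0.24, *Slc19a1* at 0.0018, *Mthfd1* at -0.012 and *Mthfd1l* at -0.29. The deviations of the 4 pairs with shared digits correlated at 0.30, -0.29, 0.11 and 0.41. The pair at -0.29 was CFA2 and HFA3, with summed B cell markers of 395 and 5.96 CPM. That at 0.41 was CFA5 and HFA5, with 1056 and 3050 CPM. Since B and T cell content also differed between libraries, these 4 values cannot decide whether the digits mark pairs. The main fit did not use the digits as a pairing. The block called 0 genes and put *Tyms* at -0.57 (unadjusted p of 0.178). Adding the second digit to the model put *Slc19a1* at 0.015. The covariate of B and T cell markers put *Folr1* at -0.18, *Mthfd1* at -0.0050 and *Abcc5* at -0.046. The covariate of epithelial markers put *Aldh1l1* at 0.023, *Paics* at 0.064, *Shmt2* at -0.092 and *Mthfd1l* at -1.005. The covariate of muscle markers put *Folr1* at -0.10 and *Mthfd1l* at -0.31.

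Within title digit 2 *Slc19a1* was at 0.088, *Aldh1l1* at 0.29 and *Mthfd1l* at -0.63, 3 members were lower in HFA and 3 other pathway genes passed the adjusted threshold, beside 9.12% of all genes. Within digit 3 *Folr2* was at -0.59, *Mthfd1* at -0.20, *Abcc5* at -0.49 and *Gcsh* at -0.073. Without CFA2, CFA5 and HFA5 *Mthfd1l* was at -0.46 and 3 other pathway genes passed, beside 2.98% of all genes. Of the other pathway genes 1 passed with the likelihood ratio test, 1 with DESeq2 and 5 with quality weights, beside 0.211%, 0.384% and 6.64% of all genes.

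With each library left out in turn, *Folr1* ran from -0.18 (without HFA4) to 0.34 (without HFA5), *Slc19a1* from -0.12 to 0.057 (without CFA4), *Mthfd1* from -0.070 (without CFA2) to 0.045 and *Aldh1l1* from -0.30 to 0.0079 (without HFA2). *Abcc5* ran from -0.053 to 0.18, *Shmt2* from -0.10 (without HFA5) to 0.19 and *Mthfd1l* from -0.96 (without HFA5) to 0.65. Members lower in HFA numbered from 3 (without HFA2) to 7, and other pathway genes passing from 0 to 1 (without HFA5, beside 0.0381% of all genes). The ratio of *Tyms* to S phase genes ran from -0.18 to 0.0058 (without HFA5), and was -0.35 with the median over the list. That of *Mthfd1* to *Mthfd1l* ran from -0.12 (without HFA4) to 0.96 (without HFA5). The adjusted p of the 6 ratios stayed between 0.119 and 0.976 in all alternatives. With 5 libraries a group, the 95% intervals of *Folr1* and *Folr2* are the widest of the 8.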
